A study of Mus musculus with 2 samples.

Results

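Apolipoproteins are the protein components of the particles that carry lipid in blood, and the liver is their main source. ApoB forms the scaffold of very low density lipoprotein (VLDL), while apoA-I and apoA-II form that of high density lipoprotein (HDL). The apoC, apoA-IV, apoA-V and apoE proteins move between particles and set how fast triglyceride is released and how remnants are cleared. The 10 genes described here are Apoa1, Apoa2, Apoa4, Apoa5, Apob, Apoc1, Apoc2, Apoc3, Apoe and Apom. They were taken by their symbols, with earlier results of these data known. All 10 were found among the 32320 named gene entries with an estimate.

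Hepatic RNA of male C57BL/6 mice was sequenced 48 hr after partial hepatectomy (PH), the surgical removal of most of the liver, with 1 library from wild-type (WT) and 1 from PPARβ-null (KO) liver. Both groups had undergone PH, and both libraries are labelled with an age of 4 months, within a stated range of 3 to 5 months. Values are FPKM, the fragments assigned to a gene scaled by its exon length and by the mapped fragments of its library, so levels of different genes can be compared. There were no replicates, so no value carries an error between mice, no test was possible, and the differences given are those between these 2 libraries. The libraries ran on different lanes, and lane and genotype cannot be told apart. How many mice gave RNA to each library, and which exons the null allele lacks, is not given in the sources used here. Ppard, the targeted gene, was at 2.67 FPKM (WT) and 2.42 (KO), so the level of its whole locus did not separate the labels.

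Hepatocyte mRNAs were high in both libraries, for instance Ttr, which encodes transthyretin, at 2503 FPKM (WT) and 2406 (KO), and the 7 hepatocyte markers with an estimate sum to 12328 and 12969. Single markers differed in both directions: Cps1, of the urea cycle, was 2.15-fold lower in KO, Tat, of tyrosine breakdown, 1.87-fold lower, and Cyp2e1, a cytochrome P450, 2.23-fold higher. The estimate of Alb failed. Markers of other liver cells were low and mostly lower in KO. The 7 macrophage markers sum to 42.4 FPKM in WT and 27.7 in KO, the 5 endothelial markers to 26.6 and 15.7, and the 5 stellate cell markers to 28.8 and 13.0. Neutrophil markers sum to 12.9 and 6.91, with Ly6g and Mpo at 0, cholangiocyte markers to 5.33 and 3.03, erythroid markers to 295 and 252, and pancreatic acinar markers, 4 of 5 at 0, to 8.77 and 18.8. Proliferation markers sum to 180 and 14.7. The part of these differences in the values below was not tested. In whole liver, fewer cells of a type and less RNA per cell cannot be told apart.

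Transcripts of the apolipoprotein genes were abundant in both genotypes and stayed near the WT level in KO, apart from Apoa4, Apob and Apoa5, which were higher in KO by 1.76-fold, 1.56-fold and 1.54-fold. The sum over the 10 genes was 20447 FPKM in WT and 22324 in KO, a KO/WT ratio of 1.09. This was 3.90% (WT) and 4.27% (KO) of the FPKM of all named gene entries with an estimate. Entries whose estimate failed, among them Alb, are not in that total. The 3 most abundant, Apoe, Apoa2 and Apoa1, made up 65.4% of the sum over the 10 genes in WT and 66.2% in KO. Levels spanned a range of 24.1-fold between the lowest and the highest of the 10 genes in WT, and of 35.0-fold in KO.

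**Figure D1:**
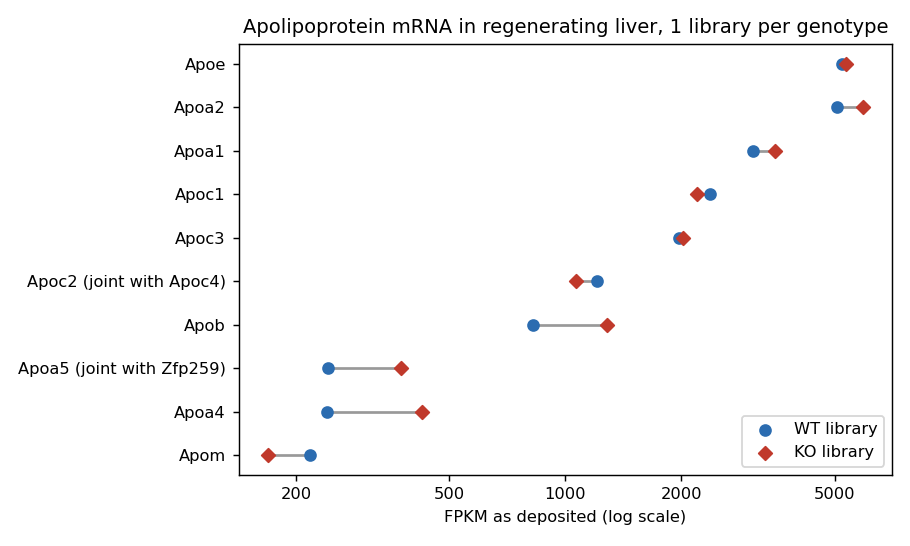
FPKM of each apolipoprotein gene on a log axis, with a circle for the WT library and a diamond for the KO library. The symbols lie close together for Apoe and Apoc3, while those of Apob, Apoa5 and Apoa4 stand apart, with KO higher.

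Across the 10 genes the median log2 KO/WT was 0.12, with 7 genes higher and 3 lower in KO. The 11025 genes averaging 1 FPKM or more, called expressed here, had a median of -0.24, and 75.7% were lower in KO. Log2 ratios used a pseudocount of 0.1 FPKM, which hardly moves genes as abundant as these. A fold above 1.5 toward KO was seen for 3 of the 10 apolipoprotein genes and for 3.96% of expressed genes. The opposite, a fold above 1.5 toward WT, was seen for 0 of the 10 genes and for 19.4% of expressed genes. Since all 10 genes had a mean FPKM above 100, the 693 genes at that level or above are the nearer background. Their median was -0.16, and 13.0% were more than 1.5-fold higher in KO and 14.6% more than 1.5-fold lower. Of the 10 genes, 9 lay above the median of expressed genes and 8 above that of the abundant genes, the exceptions being Apom in both cases and Apoc2 in the second. These counts describe 10 genes in 2 libraries. With a threshold of 2-fold no apolipoprotein gene passes in either direction on the deposited scale, but Apoa4 passes it with a log2 KO/WT of 1.05 when the median of expressed genes is set to 0 and of 1.04 with equal upper quartiles.

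**Figure D2:**
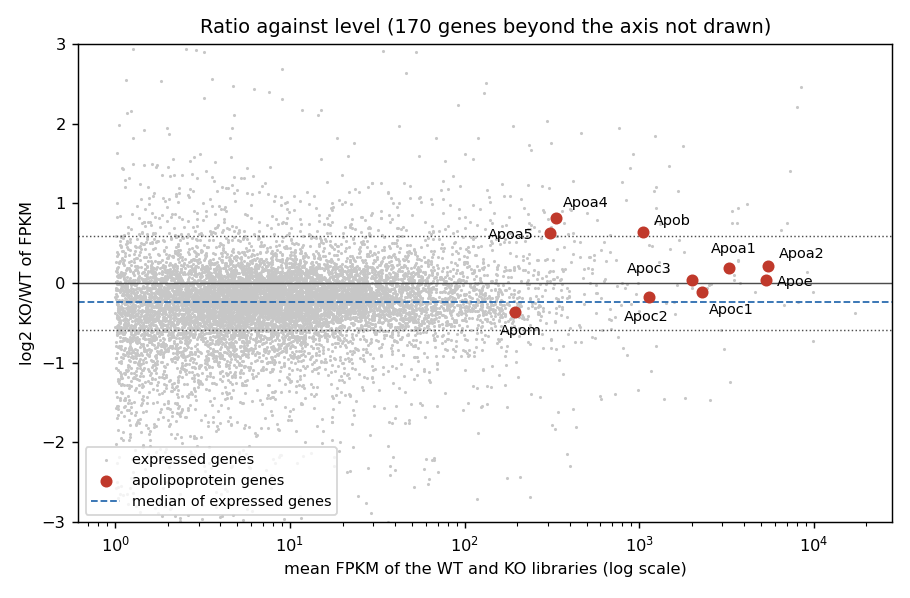
Log2 KO/WT of FPKM against the mean FPKM of the libraries for 11025 expressed genes (grey) and the 10 apolipoprotein genes (red). Dotted lines mark 1.5-fold and the dashed line the median of expressed genes, -0.24. The red points lie at the abundant end, with Apoa4, Apoa5 and Apob above the upper dotted line and none below the lower one.

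The structural proteins of HDL come first. Apoa1 encodes the main HDL protein and the cofactor of the cholesterol-esterifying enzyme LCAT. It was at 3061 FPKM (WT) and 3503 (KO), a ratio of 1.14. Apoa2, the second HDL protein, was at 5080 (WT) and 5916 (KO), a ratio of 1.16. The factors were nearly the same, and the level of Apoa2 relative to Apoa1 was 1.66 (WT) and 1.69 (KO). Such a ratio of levels inside a library does not depend on how the libraries are scaled. Apom, a lipocalin that carries sphingosine 1-phosphate on HDL, was the least abundant of the 10 genes and the one that was furthest below its WT level. Its level was 217 FPKM (WT) and 169 (KO), which is 1.28-fold lower. Relative to Apoa1, Apom stood at 0.0710 in WT and 0.0483 in KO.

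Apob encodes the single large protein that each VLDL particle is built on. Its level was 823 FPKM in WT and 1282 in KO, and its rank among the named gene entries with an estimate went from 80 to 61. Apoe, the ligand by which remnants are taken up by liver receptors, was at 5232 FPKM (WT) and 5367 (KO), a ratio of 1.03. It ranked 8 in WT and 15 in KO, a fall in rank at a nearly equal level. The level of Apoe relative to Apob was 6.36 in WT and 4.19 in KO. Apoe is also made by macrophages, and 6 of the 7 macrophage markers were lower in KO. Their part in the value of Apoe was not tested.

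The apoC genes showed small differences. Apoc2 encodes the activator of lipoprotein lipase, and Apoc3 an inhibitor of the same enzyme and of remnant uptake. Apoc3 was at 1971 FPKM (WT) and 2025 (KO), a ratio of 1.03. The row of Apoc2 also names Apoc4, so its 1207 FPKM in WT and 1068 in KO belong to both genes and cannot be divided. This joint level was 1.13-fold lower in KO, and relative to Apoc3 it was 0.613 in WT and 0.527 in KO. Apoc1, whose product slows the clearance of lipoproteins, was at 2372 FPKM (WT) and 2196 (KO), which is 1.08-fold lower. The signs of Apoc1 and Apoc2 rest on the scaling of the libraries: when the median log2 KO/WT of expressed genes was set to 0, theirs was 0.13 and 0.06.

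Apoa4 and Apoa5 were, with Apob, the genes higher in KO by over 1.5-fold under every scaling and pseudocount tried. Apoa4 encodes a protein of intestinal and hepatic lipoproteins that is known to respond to the flow of triglyceride. Its level was 241 FPKM (WT) and 424 (KO), and its rank went from 262 to 136. Apoa5 encodes a low-abundance plasma protein that promotes the lipolysis of triglyceride, and its row, which also names Zfp259, was at 242 FPKM (WT) and 373 (KO). In GENCODE vM1 on NCBIM37 these neighbours run on the same strand without overlap, but the row gives 1 value for both. In the WT library Apoa4 and the row of Apoa5 were at nearly equal levels, and in KO Apoa4 was the higher. Relative to Apoa1, Apoa4 went from 0.0786 to 0.121, and relative to Apoc3 the row of Apoa5 went from 0.123 to 0.184. Relative to Apob, Apoa4 changed less, from 0.292 to 0.330.

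Apoa4 shares its locus with an antisense gene. Gm10680, annotated as a processed transcript, occupies positions 46050704 to 46051612 of chromosome 9, minus strand, and 632 of its 702 exonic bases lie within exons of Apoa4. Its row was at 189 FPKM (WT) and 309 (KO), a ratio of 1.63. No use of strand is stated for library or counting, so fragments of the antisense gene and of Apoa4 cannot be told apart. Adding both rows, a choice made after their values were seen, gave 430 FPKM in WT and 733 in KO. The ratio of this sum was 1.70. The rows are scaled by different lengths, so the sum still depends in part on how fragments were divided between them.

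Enterocytes also make apoA-IV. Of 6 enterocyte markers, Sis, Alpi and Rbp2 were listed at 0 in both libraries and Vil1 and Lct were below 0.1 FPKM. Fabp2, the fatty acid binding protein of the gut, which is also expressed in liver, was at 24.4 (WT) and 51.2 (KO).

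Counting error was small for these genes. From the low values of single-exon genes, 1 fragment on a transcript of 1 kb was worth about 0.0184 FPKM (WT) and 0.0179 (KO). These are medians within a preset window of low values, which held 81 of 685 such genes above 0 (WT) and 71 of 642 (KO). They depend on where that window was set, and the fragment numbers and intervals below rest on them. With the longest annotated transcripts this puts the 10 genes between about 11967 fragments (Apom) and 623058 (Apob) in WT. The exact binomial 95% interval of the KO/WT ratio was 1.73 to 1.79 for Apoa4, 1.55 to 1.56 for Apob, 1.52 to 1.56 for Apoa5, 1.02 to 1.03 for Apoe and 0.758 to 0.7996 for Apom. For all 10 genes it did not hold 1 on the deposited scale. These intervals cover counting only and treat fragments as independent molecules, and the spread between mice, which was not measured, would be added to them. Scaling of the libraries is not covered by the intervals either. Equal upper quartiles shift every log2 KO/WT by 0.23, and the signs of Apoc1 and Apoc2 then change.

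The genes lie at 5 places of the genome. On chromosome 9 the locus that holds both Apoa1 and Apoc3 (NCBIM37, 46034490 to 46043845) is followed by Apoa4 (46048779 to 46051612) and Apoa5 with Zfp259 (46075785 to 46090726). Annotated gene bodies of Apoa1, on the plus strand, and Apoc3, on the minus strand, do not overlap, though their rows carry the same wide locus. In this cluster the log2 KO/WT was 0.19 for Apoa1, 0.04 for Apoc3, 0.82 for Apoa4 and 0.62 for Apoa5, so the first pair stayed near WT while the second pair was higher in KO. Next to it Bud13, a splicing factor gene, was at 2.89 FPKM (WT) and 2.08 (KO). On chromosome 7 the loci of Apoc2 and Apoc4 (20256928 to 20266998), Apoc1 (20274833 to 20278007) and Apoe (20281595 to 20284515) all lie on the minus strand, with log2 KO/WT of -0.18, -0.11 and 0.04. The furthest from WT of the 3 was Apoc2, at 1.13-fold. Tomm40, which follows Apoe and encodes a pore of mitochondrial import, was at 25.5 FPKM in WT and 17.2 in KO. Apoa2 is on chromosome 1 (173155185 to 173156510), Apob on chromosome 12 (7984454 to 8023643) and Apom on chromosome 17 (35265943 to 35268729).

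**Figure D3:**
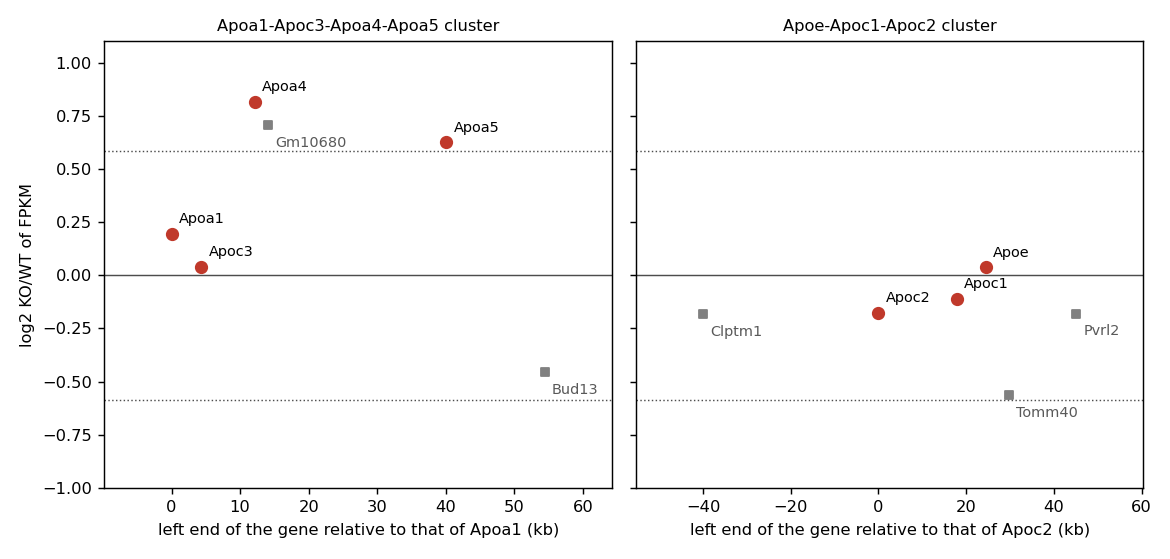
Log2 KO/WT of FPKM against the position of the left end of each gene, relative to Apoa1 (left panel) or Apoc2 (right panel), for apolipoprotein genes (red circles) and other expressed genes (grey squares). Sik3, whose locus begins further to the left, is not drawn. Apoa4, Gm10680 and Apoa5 lie above the upper dotted line at 1.5-fold, and the genes of the right panel lie between the dotted lines.

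The bases before the starts of Apoa4, Apoa5 and Apob are shown because these 3 genes were higher in KO by over 1.5-fold. They are RefSeq promoter sequence of GRCm38.p6, which was found unchanged at 1 place of NCBIM37 each, at chr9:46048677-46048778, chr9:46076441-46076690 and chr12:7984233-7984453, all on the plus strand. Bases within transcripts annotated in GENCODE vM1 were left off. Capitals mark the TATA box letters TATAAA.

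Apoa4: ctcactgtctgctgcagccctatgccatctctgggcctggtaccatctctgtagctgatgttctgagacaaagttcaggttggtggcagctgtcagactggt

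Apoa5: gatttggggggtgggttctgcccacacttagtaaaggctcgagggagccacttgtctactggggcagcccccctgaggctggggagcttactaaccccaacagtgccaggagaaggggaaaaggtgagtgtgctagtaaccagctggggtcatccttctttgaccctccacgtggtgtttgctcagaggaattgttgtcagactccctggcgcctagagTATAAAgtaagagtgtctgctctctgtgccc

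Apob: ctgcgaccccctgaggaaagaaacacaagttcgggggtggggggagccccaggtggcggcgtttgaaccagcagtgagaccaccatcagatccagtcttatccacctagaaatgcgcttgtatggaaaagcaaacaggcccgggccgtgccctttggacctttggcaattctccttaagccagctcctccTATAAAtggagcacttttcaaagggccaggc

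In Apoa5 the TATA box letters begin 31 bases before the RefSeq start and 56 before the start annotated in GENCODE vM1. In Apob they begin 60 bases before the RefSeq start and 31 before the start annotated in GENCODE vM1. Both strands of the 250 bases before each RefSeq start were searched for 5 motifs, in 12 windows of 8 of the 10 genes. Apoc1 and Apoc3 were not matched. A gene was counted when any of its windows, up to 3, held the motif, while the percentages are shares of single windows. TATAAA was found for Apoa2, Apoa5, Apob and Apoe, and in 12.4% of 32851 windows of all genes. AGGTCA, a binding element of nuclear receptors, was found for Apoa2 and Apoc2 and in 14.0% of all windows. AAAGTCCA, a core of HNF4 sites, was found for Apoa2 and in 1.01% of all windows, and GTTAAT, an element of HNF1, for Apoc2 and Apoe and in 6.43%. TGACGTG, a core of CREB3L3 sites, was found for 0 of the 8 genes and in 1.65% of all windows. Of Apoa2, TATAAA lies in the window before the annotated start at 173155185, and AGGTCA and AAAGTCCA in another at 173151445 to 173151694. The windows that held matches for Apoe and Apoc2 lie within the annotated bodies of these genes. The window of Apoa4 held none of the 5 motifs, but only 102 of its 250 bases lie before the start annotated in GENCODE vM1. A match is a description of letters and not a bound site, and these windows do not reach distal enhancers.

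Transcription factors known to act on apolipoprotein genes were mostly near their WT level in KO. Of 20 such genes 19 were expressed, and the median of their log2 KO/WT was 0.05. Of these, 2 were over 1.5-fold higher and 1 over 1.5-fold lower in KO, beside 3.96% and 19.4% of all expressed genes. Hnf4a, the hepatocyte nuclear receptor on which many of these genes depend, was at 172 FPKM (WT) and 193 (KO). Creb3l3, which encodes a fasting-responsive membrane-bound activator known to act on Apoa4, Apoa5 and Apoc2, was at 75.0 (WT) and 147 (KO), a ratio of 1.96. Nr0b2, the corepressor SHP, was 2.22-fold higher in KO. Srebf1, the regulator of fatty acid synthesis, was the gene over 1.5-fold lower, with 46.6 in WT and 9.21 in KO. Rxra, the partner of many nuclear receptors, had 91.2 and 114, and Ppara, whose product lowers apoC-III and raises apoA-V, had 24.4 and 25.2.

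Genes of lipoprotein assembly and secretion went in both directions. All 12 of the list were expressed, and the median log2 KO/WT was 0.03. In KO 2 were over 1.5-fold higher and 1 over 1.5-fold lower, beside 3.96% and 19.4% of all expressed genes. Mttp, which loads lipid onto apoB, was at 76.7 FPKM (WT) and 102 (KO), a ratio of 1.33. P4hb, the other subunit of the same transfer protein, had 516 and 688, also a ratio of 1.33. The genes past 1.5-fold were Ces3a, a carboxylesterase of triglyceride mobilisation, with 218 in WT and 380 in KO, Apobec1, the enzyme that edits Apob mRNA, with 6.78 and 11.6, and Pltp, the phospholipid transfer protein, with 6.48 and 4.00. Aadac, a lipase of the endoplasmic reticulum, had 191 and 160.

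In the list of plasma lipolysis and its control, 2 of 7 genes were over 1.5-fold higher and 1 over 1.5-fold lower in KO. The median of their log2 KO/WT was 0.17. Of all expressed genes, 3.96% were over 1.5-fold higher and 19.4% over 1.5-fold lower. Angptl4, which encodes a secreted inhibitor of lipoprotein lipase, was at 33.2 FPKM (WT) and 49.9 (KO). Gm6484, the gene now named Angptl8, had 33.3 and 50.4, so both lay just past the 1.5-fold line. Lpl itself was low in liver, at 3.54 in WT and 1.55 in KO, and was the gene over 1.5-fold lower. Lpl is made by non-parenchymal cells more than by hepatocytes, and markers of those cells were mostly lower in KO as given above. The part of those cells in the value of Lpl was not tested. Gpihbp1, which anchors lipoprotein lipase on endothelium, was at 9.81 (WT) and 7.26 (KO).

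Among 8 genes of HDL formation and remodelling, 2 were over 1.5-fold higher and 2 lower in KO, beside 3.96% and 19.4% of all expressed genes. The median of their log2 KO/WT was 0.04. Lcat, which esterifies cholesterol on HDL, was at 181 FPKM (WT) and 300 (KO), but its row also names Ctrl, Psmb10 and Slc12a4. Scarb1, the HDL receptor, was at 51.0 (WT) and 80.5 (KO), a ratio of 1.58. The lower pair were Pltp and Abcg1, a sterol exporter of macrophages, at 1.36 FPKM in WT and 0.657 in KO. Lipc, hepatic lipase, had 29.9 and 27.0. Abca1, which lipidates newly secreted apoA-I, was at 24.5 (WT) and 22.9 (KO).

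Receptors that clear lipoproteins, with genes of their control, were expressed in 6 cases of 8. Their median log2 ratio was -0.30, the lowest of the 7 lists other than cell type and proliferation markers, beside -0.24 for all expressed genes. Of the 6 genes 5 were lower in KO, none of them by 1.5-fold, beside 75.7% and 19.4% of all expressed genes. The gene higher in KO was Lrp1, a remnant receptor that binds apoE, at 126 FPKM (WT) and 190 (KO), which is 1.51-fold higher. Sdc1, a heparan sulfate carrier of remnants, had 162 and 122, and the joint row of Lsr and Usf2 had 113 and 91.6.

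**Figure D4:**
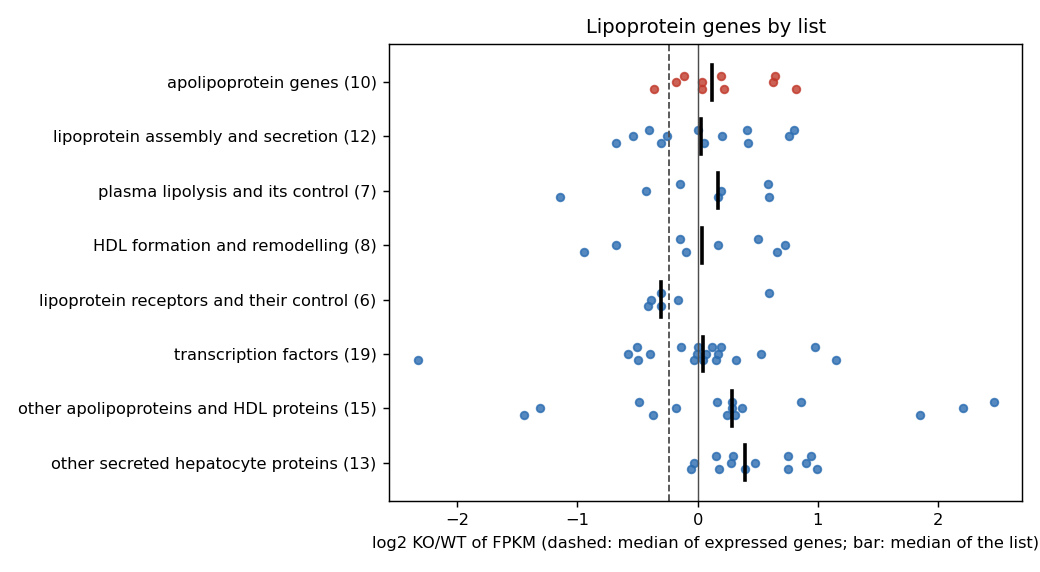
Log2 KO/WT of FPKM of single genes (points) for the 10 apolipoprotein genes and the expressed genes of 7 lists, with the number of genes in brackets. Black bars are medians and the dashed line the median of expressed genes. The bar of the apolipoprotein genes lies at 0.12, that of other secreted hepatocyte proteins at 0.39 and that of the receptors at -0.30.

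Other genes named as apolipoproteins, genes of proteins carried on HDL and the lipocalin gene Lcn2 were set beside the 10 genes. The list includes Apoc4, whose value is the row it shares with Apoc2, so that row is counted in both groups. Of 16 listed, 15 were expressed. In KO 4 were over 1.5-fold higher and 2 over 1.5-fold lower, beside 3.96% and 19.4% of all expressed genes. The median of their log2 KO/WT was 0.28. Saa1 and Saa2, acute phase proteins that ride on HDL, had FPKM of 2839 and 2592 in WT, and 13137 and 14274 in KO, so that in the KO library both were above every one of the 10 apolipoprotein genes. In WT, Apoe, Apoa2 and Apoa1 were above both. Saa4, the constitutive member, was at 163 (WT) and 297 (KO). The remaining gene past 1.5-fold was Lcn2, a lipocalin of the same fold as Apom, with 538 and 1935. Apoh, Apof and Clu, abundant plasma apolipoproteins, had ratios of 1.22, 1.24 and 1.12. The lower pair was Apol9a and Apol9b, near-identical copies between which fragments may be divided uncertainly, at 2.50-fold and 2.74-fold.

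Most genes listed for other proteins that hepatocytes secrete were higher in KO. Of the 13 listed genes with an estimate, 11 were higher in KO, 5 of them by over 1.5-fold. The median log2 KO/WT was 0.39. Of the 693 abundant genes, 13.0% were more than 1.5-fold higher in KO, and 62.6% were lower. The 5 listed genes past 1.5-fold were Hpx, Serpina1e, Fga, Fgb and Fgg. Other listed genes stayed near WT, with ratios of 0.96 for Ttr, 0.98 for Gc and 1.11 for Ambp. Hpx, hemopexin, was at 5230 FPKM (WT) and 8795 (KO), and Serpina1e 2761 and 5493. The fibrinogen genes Fga, Fgb and Fgg had ratios of 1.92, 1.68 and 1.87. Serpina1e has close paralogs that may share its fragments. Ahsg, which encodes fetuin-A, had 5309 and 5991, a ratio of 1.13 that is close to those of Apoa1 and Apoa2. The estimates of Alb and Trf failed and were left out.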

How the data were processed

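Total RNA of WT and KO liver was made into 1 TruSeq library each and sequenced with 100 bp reads, named single end in the methods and paired end in the labels. The authors aligned reads with TopHat 2.0.0 to NCBI37 (mm9), assembled transcripts with Cufflinks 1.3.0 and estimated 1 FPKM per locus and library with Cuffdiff. These FPKM values are used as deposited, and whether quartile normalization was applied is not given in the sources used here. The authors' deposited table also holds 5 columns of their own comparison (a log2 fold change, a test statistic, p-values, q-values and a mark of significance), which were not used.

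Of 38016 loci, 2302 without a symbol and 21 marked HIDATA, which are failed estimates, were left out. No apolipoprotein gene was among them. Rows of a symbol were summed, and a row naming several symbols was given to each of them, but counted once in the background. Values were computed with pandas 2.3.3 and numpy 2.4.6 under Python 3.11.15, intervals with scipy 1.17.1 and figures with matplotlib 3.10.9. The calculation was tested on simulated libraries. Low FPKM of single-exon genes over 600 nt gave the worth of 1 fragment. With 1 library per genotype, samples could not be tested against each other.

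The genes and lists were chosen with earlier results of these data known. Some genes of the lists are not reported here and were left out of their counts and medians. Named were the 10 genes, Ppard, loci within 50 kb, and of each list the 3 with the highest mean FPKM and those over 2-fold. Other genes were named after their values were seen, among them those that complete a count. Alternatives covered scaling, pseudocount, fold, joint loci and summing of rows.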

Additional observations from a re-analysis of the deposited data

How the results depend on the processing

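No paired analysis was possible because each genotype has a single library, and for that reason no library could be left out either. The median over the 10 genes of log2 KO/WT ranged from 0.12 to 0.35 over the alternatives in scaling, pseudocount and rows, the highest with the median of expressed genes set to 0. Equal upper quartiles shift every log2 KO/WT by 0.23 and centring by 0.24, and equal sums of FPKM by 0.0024. After centring, the log2 KO/WT was 0.43 for Apoa1, 0.46 for Apoa2 and -0.12 for Apom. The count of genes over 1.5-fold higher in KO was 3 under each of these scalings and pseudocounts and with Gm10680 added to Apoa4, an alternative chosen after seeing the data, and 2 without joint loci, since the row of Apoa5 is then left out. With a fold of 2 it was 0 on the deposited scale, but Apoa4 passed that fold after centring (log2 KO/WT of 1.05) and with equal upper quartiles (1.04). The count over 1.5-fold lower was 0, and 1 with the looser fold tried, which Apom passed at 1.28-fold. Of 79 values of single genes under alternatives, 5 changed sign, and these belonged to Apoc1 and Apoc2. Without a filter on low FPKM the background had a median of -0.21, with 4.78% of genes over 1.5-fold higher in KO. Counting was no limit at these levels, and the spread between mice was not measured.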

Other observations

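Within 50 kb of the loci of the 10 genes, 29 other named loci were found, of which 20 had a mean FPKM of at least 1. Of these, 15 were lower in KO, and the median log2 KO/WT was -0.23, near that of all expressed genes. Besides Gm10680, 1 neighbour was over 1.5-fold higher in KO and 1 over 1.5-fold lower with the pseudocount of 0.1 FPKM, and both lie beside Apoa2. Nr1i3, which encodes the xenobiotic receptor CAR, was at 35.6 FPKM (WT) and 75.6 (KO), a ratio of 2.12, while Apoa2 had a ratio of 1.16. Fcer1g, an immune receptor chain made by myeloid cells, was at 5.36 (WT) and 2.80 (KO). Around Apom, itself 1.28-fold lower in KO, 6 of the 7 expressed neighbours were lower, beside 75.7% of all expressed genes. Of the 7, Aif1, a macrophage gene, was the furthest from WT, at 1.70 (WT) and 1.13 FPKM (KO). Its plain ratio is just past 1.5-fold and falls short of it with the pseudocount. D17H6S53E was higher, with a ratio of 1.18.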
